A study of Homo sapiens with 9 samples.

Results

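The genes described here bind retinoic acid inside the cell, respond to it in the nucleus, or make and break it down. There were 9 of them: the binding proteins CRABP1 and CRABP2, the receptors RARA, RARB, RARG and RXRA, and the enzymes ALDH1A1, DHRS3 and CYP26A1. They were found on the array as the gene probes that carry a RefSeq transcript of one of these genes, which gave 14 probes, among 42405 gene probes for 35010 genes in all. CRABP1, a gene that the study also examined by chromatin immunoprecipitation, was chosen by its measured level, which is low at 80 nM, so its values on the 80 nM arrays are described and not tested. Expression was measured on one-colour arrays in A2780, an established human ovarian carcinoma line, after 24 h. The 3 groups were cells with no drug, cells with 8 nM DIG-MSK and cells with 80 nM DIG-MSK, with 3 independent cultures and so 3 arrays in each. DIG-MSK is a derivative of mithramycin, whose parent compound sits in the minor groove at C/G-rich sites. All groups were the same single line, so the results hold for these cells alone.

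Retinol taken up from the blood is oxidized in the cell to retinal by retinol dehydrogenases and then to retinoic acid by retinaldehyde dehydrogenases such as ALDH1A1, while DHRS3 turns retinal back into retinol and CYP26A1 oxidizes retinoic acid for removal. CRABP2 carries retinoic acid to the nucleus and CRABP1 holds it in the cytoplasm. In the nucleus the receptors RARA, RARB and RARG act as dimers with RXRA on paired hexamers in DNA, where they recruit corepressors such as NCOR1 without ligand and coactivators such as CREBBP with it.

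A level is a log2 intensity, with background subtracted by the scanner software, counted from the 75th percentile of its array, so that 0 marks that percentile. Levels of different probes are not on a common scale and were not compared. Tested genes had a probe that stood well above background in 1 whole group of 3 arrays or more, and the probe with the highest mean level stands for the gene. To be called, a gene had to differ by 1.5-fold or more and have an unadjusted p under 0.05. This call rule follows the study. Each adjusted p is a limma value corrected by Benjamini-Hochberg across 21813 genes. Of the 9 genes, 8 were tested and RARB was not. Between 24800 and 27123 probes were well above background per array, and replicate arrays correlated at 0.9891 to 0.9957. The untreated and 8 nM arrays shared 1 slide and the 80 nM arrays lay on another, so that a difference at 80 nM and a difference between slides cannot be told apart. Same-numbered untreated and 8 nM arrays deviated together weakly, with correlations of 0.1012 to 0.1624. Values blocked on that number, for the probe that stands for the gene, therefore stand beside results given at 8 nM. They are given where they change a call or an adjusted p crosses 0.05. Of the marker lists, 4 of 5 epithelial markers were well above background on all 9 arrays and CDH1 on none, whereas among the 4 ovarian and Müllerian markers WT1, MUC16 and MSLN were well above background on none and PAX8 on 3 arrays. Of 4 fibroblast markers, 2 were well above background on all 9 arrays. The summed level of the 4, as intensity over the 75th percentile, was 0.891 to 0.986 on untreated, 1.09 to 1.24 on 8 nM and 0.182 to 0.211 on 80 nM arrays. The list holds COL6A3, whose mean log2 level was -0.84 on untreated and -7.91 on 80 nM arrays, and its part in the results at 80 nM was not tested. In RNA of a whole culture, fewer cells expressing a gene and less RNA per cell cannot be told apart. Summed levels of the 4 leukocyte markers were 0.135 to 0.188 on untreated and 0.226 to 0.261 on 80 nM arrays, and those of the 3 endothelial markers 0.128 to 0.133 and 0.141 to 0.173. PECAM1 and VWF were well above background on none.

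The promoters of these genes show the 2 kinds of sequence that bear on the study, the C/G-rich boxes to which Sp1 and the drug class bind and the hexamers on which retinoid receptors sit. In RefSeq on GRCh38.p14, 18 promoters of 300 bases (250 before to 50 from the start) matched the 9 genes. The GC box core GGGCGG was searched on both strands, with overlapping matches counted, and was in 9 of the 18 promoters, from 6 genes. It was in 45.0% of all 35116 promoters of this length. RARG, 1 promoter of RXRA and 1 of RARA held 4 or more of these cores, as did 9.06% of all promoters. The receptor hexamers searched were AGGTCA, its variant AGTTCA, the variant GGGTCA and the last variant GGTTCA, again on both strands. They were in 9 of the 18 promoters and in 38.6% of all. A direct repeat of 2 such hexamers with 5 bases between them was in 1 promoter of RARB and 1 of CYP26A1, and in 0.0883% (31) of all promoters. Such repeats are known from the retinoic acid response elements of these same genes, so that finding them there was no independent test. The 4 promoters below are shown because they carry the only GC box core of CRABP1, the cluster of cores of RXRA, which fell at both concentrations, and the repeats of RARB and CYP26A1. All 4 lie on the plus strand and are written 5′ to 3′, with GC box cores and repeats of hexamers in capitals.
CRABP1, chr15:78340103-78340402: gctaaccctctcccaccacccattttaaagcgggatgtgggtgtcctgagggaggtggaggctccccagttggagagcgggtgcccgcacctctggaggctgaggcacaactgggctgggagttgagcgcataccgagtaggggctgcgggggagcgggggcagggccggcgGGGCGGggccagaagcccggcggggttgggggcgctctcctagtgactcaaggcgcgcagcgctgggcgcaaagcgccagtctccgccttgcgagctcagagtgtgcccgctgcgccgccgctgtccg
RXRA, chr9:134326205-134326504: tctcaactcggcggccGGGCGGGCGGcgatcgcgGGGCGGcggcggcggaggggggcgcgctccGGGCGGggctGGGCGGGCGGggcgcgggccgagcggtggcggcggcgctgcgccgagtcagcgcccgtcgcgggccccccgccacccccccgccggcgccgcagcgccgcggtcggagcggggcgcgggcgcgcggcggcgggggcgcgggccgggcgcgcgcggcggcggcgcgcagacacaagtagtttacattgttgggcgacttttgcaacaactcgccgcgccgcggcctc
RARB, chr3:25428013-25428312: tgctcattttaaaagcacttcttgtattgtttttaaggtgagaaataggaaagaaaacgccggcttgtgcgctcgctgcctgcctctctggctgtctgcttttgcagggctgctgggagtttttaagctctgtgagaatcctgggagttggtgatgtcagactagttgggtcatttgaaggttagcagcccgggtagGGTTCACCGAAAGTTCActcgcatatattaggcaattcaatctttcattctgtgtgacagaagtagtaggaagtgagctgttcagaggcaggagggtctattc
CYP26A1, chr10:93073643-93073942: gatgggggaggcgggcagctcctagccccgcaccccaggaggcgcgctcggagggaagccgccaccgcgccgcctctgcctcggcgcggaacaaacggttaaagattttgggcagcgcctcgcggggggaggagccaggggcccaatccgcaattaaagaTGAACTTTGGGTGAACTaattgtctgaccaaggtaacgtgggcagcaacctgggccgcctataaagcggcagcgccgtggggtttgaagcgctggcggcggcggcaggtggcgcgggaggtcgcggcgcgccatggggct
The core of CRABP1 spanned positions -78 to -73 from the start. The promoter of RXRA shown was 84.0% G and C, against a median of 58.7% over all promoters, and its 6 cores lay between positions -234 and -167, some of them sharing bases. The other promoter of RXRA was 64.7% G and C and held 1 core. The repeat of RARB spanned positions -53 to -37, and that of CYP26A1 positions -90 to -74 on the other strand. ALDH1A1, CRABP2 and both promoters of CYP26A1 had no core in this window, and the 3 promoters of DHRS3 had 1 between them. Of the genes with 4 or more cores in a promoter, RXRA was lower at 80 nM, RARA was lower by 1 of its 2 probes, and RARG was higher. A link between cores and changes was not tested. A match describes letters only, and no occupancy was measured here.

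**Figure D1:**
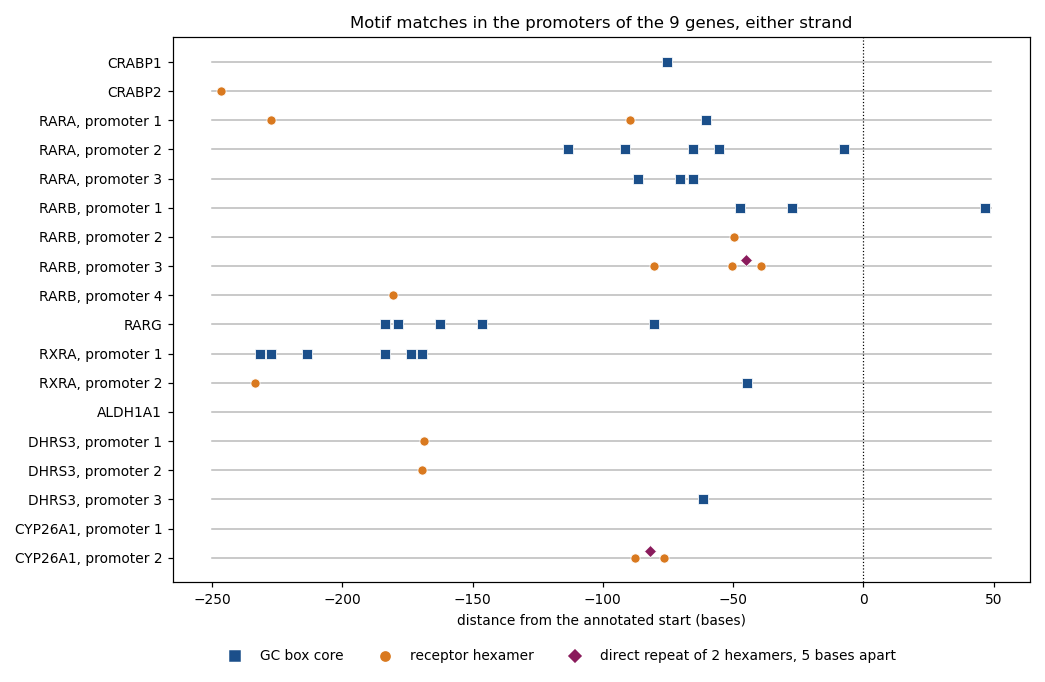
Positions of GC box cores (squares), receptor hexamers (circles) and direct repeats of 2 hexamers 5 bases apart (diamonds) in 18 RefSeq promoters of the 9 genes, in bases from the annotated start (dotted line). The 6 cores of the first RXRA promoter sit between -234 and -167, and only 1 promoter of RARB and 1 of CYP26A1 hold a repeat.

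Of the retinoic acid binding proteins, CRABP1 was low in cells with 80 nM DIG-MSK and CRABP2 was lower there by 1 of its 2 probes. Neither was called lower at 8 nM. CRABP1 (NM_004378) had levels of 1.66, 1.28 and 0.91 on the untreated arrays, 1.91, 1.5 and 1.18 on the 8 nM arrays, and -5.17, -4.64 and -5.05 on the 80 nM arrays. The 80 nM arrays were all far below the others, and the untreated and 8 nM arrays overlapped. The processed intensity of the probe lay between 1905 and 2641 on untreated arrays and between 27.3 and 35.3 on 80 nM arrays, where it was still well above background on all 3. As a description, the mean at 80 nM was 75.2-fold below untreated (difference of log2 levels -6.23, SE 0.24) and 89.4-fold below 8 nM. The size depended on the processing, and the log2 difference from untreated was -5.16 in the table the authors deposited and -4.56 after normexp, another background correction. The second probe of CRABP1, with the same accession, had levels of -0.20, -0.49 and -0.74 on untreated arrays and of -2.52, -2.54 and -2.56 on 80 nM arrays. It was lower on every 80 nM array as well, with a difference of -2.07 that is given as a description.

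At 8 nM, CRABP1 differed from untreated by 0.25 on the log2 scale (SE 0.24, limma adjusted p = 0.513), with a 95% interval of -0.31 to 0.81, and was not called. The spread lay between pairs and not within them: the 8 nM array exceeded the untreated array of the same number by 0.25, 0.22 and 0.28, and for the second probe by 0.37, 0.25 and 0.26. With the replicate number as a block the estimate was 0.25 with an interval of 0.03 to 0.47 (limma, adjusted p = 0.159). So the 8 nM arrays were higher in 3 of 3 pairs for both probes, but the change did not pass adjustment.

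CRABP2 (NM_001878) had levels of 2.50, 2.63 and 2.67 on untreated, 3.05, 3.03 and 3.07 on 8 nM, and 0.88, 1.09 and 1.04 on 80 nM arrays. The groups did not overlap: 8 nM was the highest and 80 nM the lowest. At 8 nM it was 1.37-fold above untreated (log2 change 0.45 ± 0.08, SE, limma adjusted p = 0.00912), which was under the fold limit, and the adjusted p was 0.0755 with the replicate block and 0.5 with scaling to spike-in controls. At 80 nM it fell 3.02-fold below untreated (log2 change -1.59 ± 0.08, SE, limma adjusted p = 1.38e-06) and 4.13-fold below 8 nM (adjusted p = 3.48e-07). A dimmer probe, assigned to another CRABP2 transcript (NM_001199723), did not follow. Its levels were -3.86, -4.04 and -3.82 on untreated and -3.54, -3.70 and -3.80 on 80 nM arrays, a difference of 0.23 (95% interval -0.09 to 0.55, limma adjusted p = 0.195). The fall of CRABP2 therefore rests on 1 of its 2 probes.

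**Figure D2:**
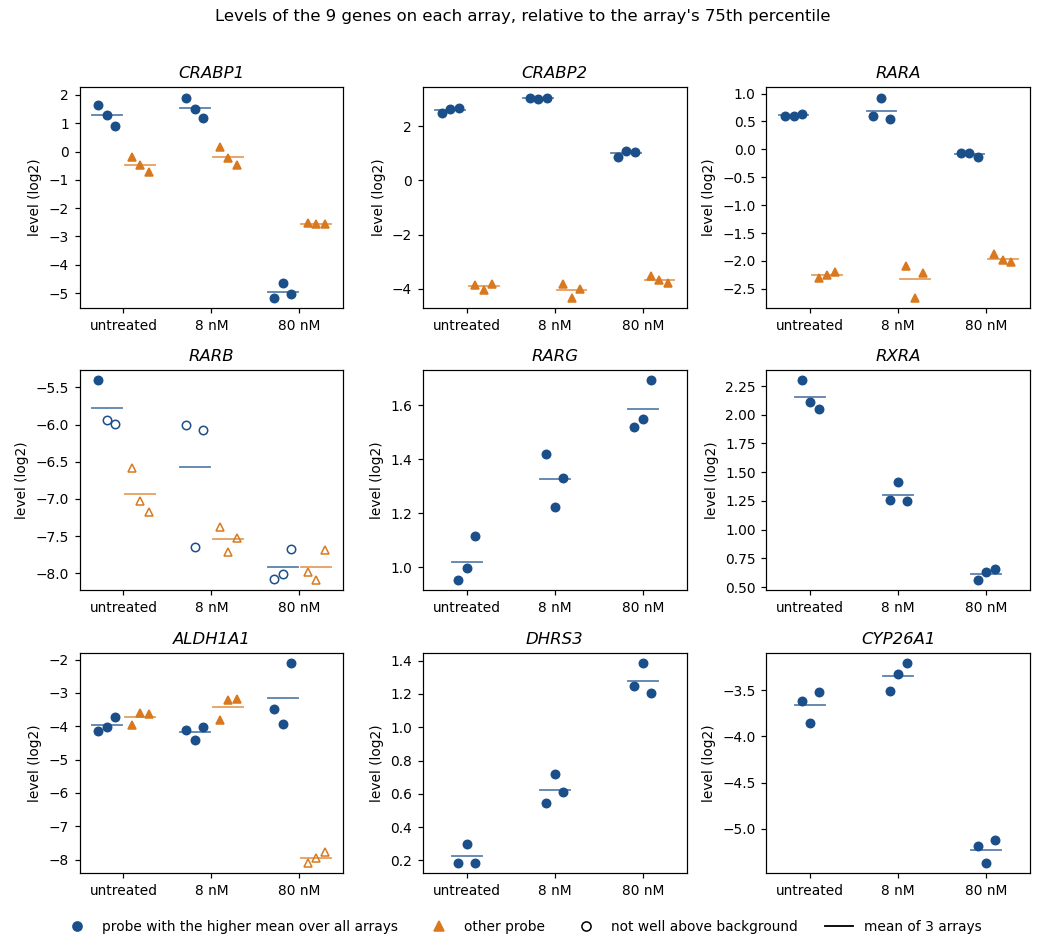
Level (log2, relative to the 75th percentile of the array) of each probe of the 9 genes on each of the 9 arrays by group, with the mean of 3 arrays as a line and open symbols where a probe was not well above background. RXRA steps down and DHRS3 steps up over the 3 groups, the 2 probes of CRABP1 are lower by unequal amounts at 80 nM, and the 2 probes of ALDH1A1 part at 80 nM.

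Of the receptors, RXRA fell at both concentrations, RARG was higher by less than the fold limit, and RARB was near background. RXRA (NM_002957), the common partner of the retinoic acid receptors, had levels of 2.30, 2.11 and 2.05 on untreated, 1.26, 1.41 and 1.24 on 8 nM, and 0.56, 0.63 and 0.65 on 80 nM arrays. These formed 3 steps without overlap. RXRA fell 1.80-fold at 8 nM (log2 change -0.85 ± 0.09, SE, limma adjusted p = 0.000797), a comparison within 1 slide. At 80 nM it fell 2.91-fold against untreated (-1.54 ± 0.09, SE, limma adjusted p = 2.71e-06), and a further 1.61-fold against 8 nM (adjusted p = 0.000264). With the replicate block the change at 8 nM kept an adjusted p of 0.0355, whereas with scaling to spike-in controls it was -0.77 with an adjusted p of 0.093. RXRA was the only one of the 8 tested genes called at 8 nM, where 6.98% of all genes were called, 2.73% as lower and 4.25% as higher. The study had listed RXRA from these samples, so that its call is not independent evidence. At 80 nM, 4 of the 7 tested genes other than CRABP1 were called lower and 1 higher, where 16% of all genes were called lower, 18.9% higher and 35% either way. Against 8 nM, 4 of the 7 were called lower and 2 higher, with 33.5% of all genes called, 13.9% lower and 19.6% higher. Of the 2 higher, ALDH1A1 was so by 1 of its 2 probes and lower by the other, so its direction is not read. When the adjusted p replaced the unadjusted one, RXRA alone was called at 8 nM (5.05% of all genes), and of the 7 genes 5 were called against untreated (34.2%) and 5 against 8 nM (32.7%). Groups did not overlap for 5 of 8 genes at 8 nM (34.1% of all genes), for 6 of 7 at 80 nM (72.1%) and for 7 of 7 between the concentrations (64.9%). Log2 changes at 80 nM had a median of -0.69 over these 7 genes and of 0.08 over all genes, and at 8 nM of 0.28 over the 8 genes and of -0.06 over all.

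RARA (NM_001024809) had levels of 0.60, 0.59 and 0.63 on untreated, 0.60, 0.93 and 0.55 on 8 nM, and -0.06, -0.06 and -0.13 on 80 nM arrays. Untreated and 8 nM arrays overlapped and the 80 nM arrays lay below both. RARA fell 1.62-fold at 80 nM (log2 change -0.69 ± 0.10, SE, limma adjusted p = 0.00053), and its change at 8 nM was 0.09 (95% interval -0.15 to 0.32). Its dimmer probe, with the same accession, did not, going from -2.30, -2.25 and -2.20 on untreated to -1.87, -1.99 and -2.01 on 80 nM arrays. That difference of 0.29 did not pass adjustment (limma, adjusted p = 0.099), though against 8 nM the same probe was 0.37 higher (adjusted p = 0.0483). The fall of RARA therefore rests on 1 of its 2 probes.

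RARG (NM_000966) had levels of 0.95, 1.00 and 1.11 on untreated, 1.42, 1.22 and 1.33 on 8 nM, and 1.52, 1.55 and 1.69 on 80 nM arrays. The 3 groups stood in rising steps without overlap. At 80 nM it was 1.48-fold higher (log2 change 0.57 ± 0.09, SE, limma adjusted p = 0.000625), just under the fold limit, so RARG was not called. The log2 change passed that limit without untreated replicate 3 (0.61), 80 nM replicate 1 (0.60) or 80 nM replicate 2 (0.59), and with scaling to spike-in controls it was 0.28 (limma, adjusted p = 0.406). At 8 nM the log2 change was 0.30 ± 0.09 (SE), with an adjusted p of 0.0499 (limma) that became 0.153 with the replicate block. It passed 0.05 in 6 of 20 alternatives and reached 0.744. When arrays were scaled to spike-in controls, its change between 8 and 80 nM turned from 0.26 (adjusted p = 0.0282) to -0.10.

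RARB (NM_000965), itself a gene switched on by retinoic acid, was near the limit of the arrays. Its brighter probe had log2 levels of -5.40, -5.93 and -6.00 on untreated arrays, -6.01, -7.64 and -6.08 at 8 nM and -8.07, -8.02 and -7.68 at 80 nM. It was well above background on the first untreated array alone, 1 of 3, and on no treated array. With only 1 untreated array above background, no fold is given for RARB. The second probe was well above background on no array.

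**Figure D3:**
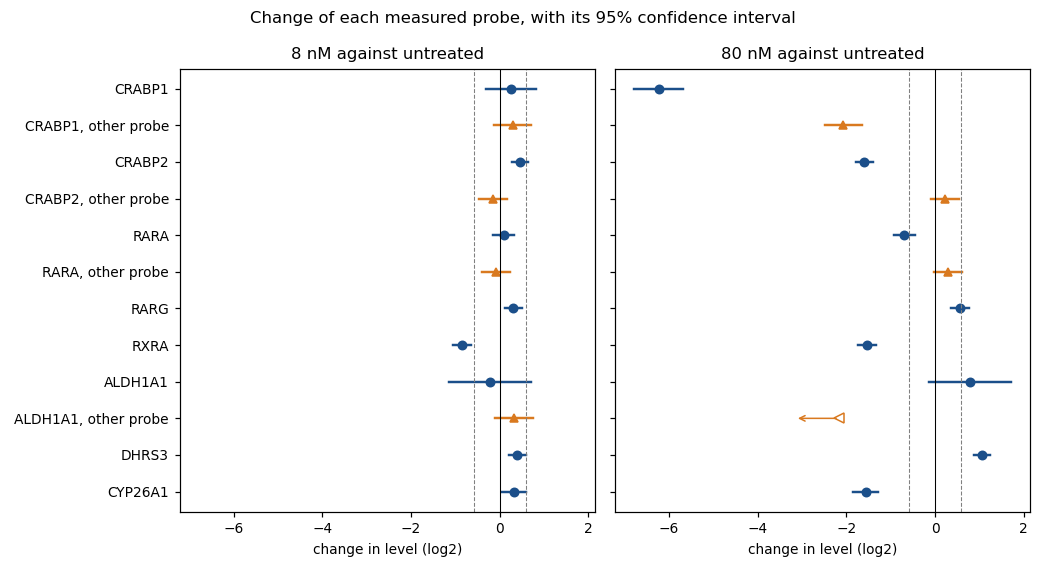
Log2 change of each probe that passed the filter, for 8 nM (left) and 80 nM (right) against untreated, with 95% confidence intervals from limma; dashed lines mark 1.5-fold and the open arrow a bound for a probe not well above background at 80 nM. At 8 nM only RXRA lies beyond the fold line, while at 80 nM the probes of CRABP2, RARA and ALDH1A1 disagree.

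The enzymes divided: CYP26A1 fell and DHRS3 rose at 80 nM, and the probes of ALDH1A1 disagreed. CYP26A1 (NM_057157), which clears retinoic acid and is among the genes it induces most directly, had levels of -3.62, -3.86 and -3.52 on untreated, -3.51, -3.33 and -3.20 on 8 nM, and -5.19, -5.37 and -5.12 on 80 nM arrays. It was low throughout but well above background on all 9 arrays, and the 80 nM arrays lay below all others. It fell 2.96-fold at 80 nM (log2 change -1.56 ± 0.12, SE, limma adjusted p = 1.5e-05) and 3.69-fold against 8 nM (adjusted p = 5.61e-06). The size of this fall depended on the processing. Over 19 alternatives the log2 change at 80 nM ranged from -1.85 to -0.60 against untreated and from -2.24 to -0.70 against 8 nM. With arrays left out in turn it stayed between -1.66 and -1.49 against untreated. The highest adjusted p (limma) over the alternatives was 0.000353 against untreated and 0.000135 against 8 nM. At 8 nM the arrays of CYP26A1 lay above the untreated ones without overlap, so that any pairing gives a rise. Same-numbered arrays differed by 0.11, 0.53 and 0.31. The change of 0.32 ± 0.12 (SE) did not pass adjustment (limma, adjusted p = 0.117).

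DHRS3 (NM_004753), the retinal reductase that limits retinoic acid synthesis and is likewise known to be induced by retinoic acid, had levels of 0.18, 0.30 and 0.18 on untreated, 0.54, 0.72 and 0.61 on 8 nM, and 1.25, 1.39 and 1.21 on 80 nM arrays. The 3 groups rose in steps without overlap, in the opposite direction to CYP26A1 at 80 nM. The increase was 2.08-fold at 80 nM (log2 change 1.06 ± 0.08, SE, limma adjusted p = 1.48e-05) and 1.58-fold from 8 to 80 nM (adjusted p = 0.00023). At 8 nM it was 1.32-fold, under the fold limit (0.40 ± 0.08, SE, limma adjusted p = 0.0155), and the adjusted p was 0.0819 with the replicate block and 0.0516 and 0.0597 without untreated replicates 1 and 3. Over 20 alternatives it passed 0.05 in 16, and the highest adjusted p was 0.541. With scaling to spike-in controls the change from 8 to 80 nM was 0.30 (limma, adjusted p = 0.345).

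ALDH1A1 (NM_000689) was measured by 2 probes with the same accession that gave opposite results at 80 nM. The probe that stands for the gene had levels of -4.13, -4.01 and -3.72 on untreated, -4.10, -4.42 and -4.01 on 8 nM, and -3.49, -3.92 and -2.09 on 80 nM arrays. The third 80 nM array stood above its 2 fellows, and the untreated and 80 nM groups overlapped. The difference of 0.79 ± 0.41 (SE) did not pass the test (limma, adjusted p = 0.126). It was 1.17 without 80 nM replicate 2 (adjusted p = 0.0311) and 0.25 without 80 nM replicate 3 (adjusted p = 0.301). The other probe had levels of -3.96, -3.60 and -3.64 on untreated, -3.82, -3.23 and -3.18 on 8 nM, and -8.10, -7.96 and -7.78 on 80 nM arrays. On the 80 nM arrays it was not well above background, with intensities of 3.56 to 4.15, close to those of the negative controls, which had medians of 3.17 to 4.54. It was at least 4.48-fold lower than untreated and at least 5.60-fold lower than 8 nM. The adjusted p of 7e-07 and 4.66e-07 (limma) belong to the fitted differences, which use these values at background, and do not test the bounds. The first probe was taken only because its mean over all 9 arrays was the higher. On untreated and on 8 nM arrays the other probe had the higher mean, so the choice rests on the 80 nM arrays. With the mean of both probes the change was -1.71 (limma, adjusted p = 0.000532). Against 8 nM the first probe was called 2.02-fold higher, with an adjusted p of 0.0609 (limma). Because of that choice of probe, this call is a description and not read as a test. No direction can be given for ALDH1A1 at 80 nM.

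The other genes of retinoid handling were taken from a list of 76 by role, of which 75 were on the array and 46 passed the filter. At 8 nM, 3 of the 46 were called higher and 1 lower, where 4.25% of all genes tested were called higher and 2.73% lower. With the replicate block CES1 was called lower as well (log2 change -0.74, limma unadjusted p = 0.00526, adjusted p = 0.0758). At 80 nM, 9 were called higher and 15 lower, beside 18.9% and 16% of all genes. Against 8 nM, 9 were called higher and 16 lower, beside 19.6% and 13.9%. The counts by role given next stand against these same shares of all genes, and with so few genes in a role nothing is read from them. Their median change was -0.01 at 8 nM and -0.07 at 80 nM, against -0.06 and 0.08 over all genes. With spike-in scaling the split at 80 nM was 6 higher and 19 lower. Genes named below are those with the largest changes that passed adjustment without overlap between groups, and STRA6, which was added after its values were seen.

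In synthesis, 2 of 11 genes were called higher and 3 lower at 80 nM. RDH10, the main retinol dehydrogenase of retinoic acid synthesis, had levels of 1.82, 2.07 and 1.84 on untreated, 1.92, 2.18 and 1.99 on 8 nM, and -0.10, -0.05 and -0.04 on 80 nM arrays. It fell 3.93-fold at 80 nM (log2 change -1.97 ± 0.10, SE, limma adjusted p = 1.28e-06), with the 80 nM arrays below all others. RDH5, the 11-cis retinol dehydrogenase known from the retina, moved the other way, from -1.96, -1.97 and -2.21 to -0.10, -0.09 and -0.12, an increase of 3.85-fold (1.95 ± 0.10, SE, adjusted p = 1.28e-06). RDH13 fell 1.80-fold. ALDH1A2, a retinaldehyde dehydrogenase, had levels of 1.08, -3.70 and -3.77 on untreated, -3.99, -4.09 and -3.56 on 8 nM, and -7.05, -8.07 and -7.68 on 80 nM arrays, where it was not well above background. The first untreated array stood apart because 1 of its 2 spots had a signal of 78630 and the other 38.6. ALDH1A2 was at least 13.6-fold lower at 80 nM with that array and at least 4.47-fold lower without it, and at least 4.05-fold lower than 8 nM. The adjusted p against untreated (limma) was 0.00362 with that array and 5.92e-05 without it. These belong to fitted differences that use values at background and do not test the bounds. With normexp the log2 change of ALDH1A2 at 80 nM was -2.42 (limma, adjusted p = 0.0517). ALDH1A3, of the same enzyme family, was at -7.52, -5.36 and -6.18 on untreated arrays, well above background on 1 of them, and at -4.47, -4.52 and -4.28 on 8 nM arrays. Its adjusted p at 8 nM was 0.044 (limma) and 0.0881 with the replicate block, and it passed 0.05 in 7 of 19 alternatives. ALDH1A3 passed the filter through the 8 nM arrays alone, where it was high. Its call and p at 8 nM are therefore a description and not read as a test.

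In binding and transport, 3 of 10 genes were measured. STRA6, the membrane receptor that takes retinol from its carrier in blood, was measured by 2 probes that differed. Its brighter probe had levels of 1.70, 1.78 and 1.82 on untreated, 2.28, 2.66 and 2.29 on 8 nM, and 1.65, 1.70 and 1.73 on 80 nM arrays. This probe rose at 8 nM by 0.65 ± 0.11 (SE, limma adjusted p = 0.00686) and its change at 80 nM was -0.07 (95% interval -0.32 to 0.17), while with the replicate block the adjusted p at 8 nM was 0.0638. The other probe, well above background on all 9 arrays, changed by -0.04 at 8 nM (adjusted p = 0.843) and fell by 1.63 on the log2 scale at 80 nM (limma, adjusted p = 7.71e-06). Both the increase at 8 nM and the lack of a call at 80 nM therefore rest on 1 of the 2 probes.

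**Figure D4:**
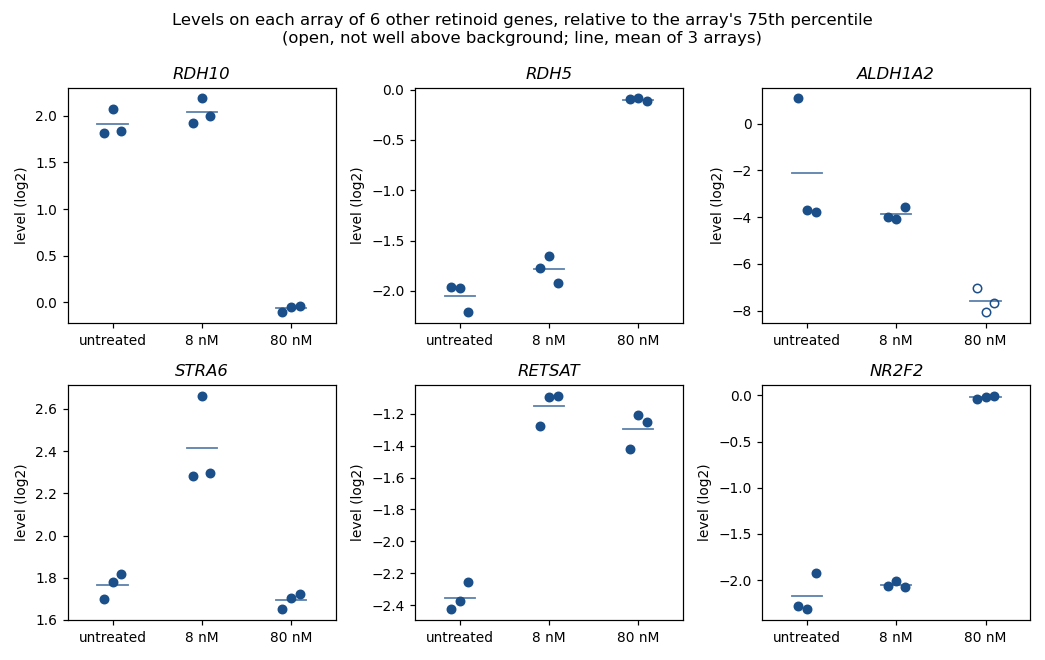
Level (log2, relative to the 75th percentile of the array) of 6 other retinoid genes on each array by group, with the mean of 3 arrays as a line and open circles where the probe was not well above background. RDH10 is low and RDH5 and NR2F2 are high at 80 nM, the plotted probe of STRA6 is high at 8 nM alone, RETSAT is high at both concentrations, and ALDH1A2 has 1 untreated array far above its fellows.

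Among receptors and cofactors, none of the 3 other receptors (RXRB, RXRG and PPARD) was called at 80 nM, and 4 of 12 cofactors were called lower and 2 higher. RXRB had a log2 change of 0.34 ± 0.08 (SE) at 80 nM, whereas RXRA fell. The corepressor NCOR1 fell 2.27-fold at 80 nM, the coactivator CREBBP 2.27-fold and the coactivator NCOA2 2.08-fold, while the acetyltransferase KAT2B rose 2.77-fold (limma adjusted p between 3.2e-06 and 0.0153). The fall of NCOA2 did not pass adjustment with the mean of its probes (adjusted p = 0.109). CREBBP and NR2F1 are in lists the study made from these samples, so their direction is not independent evidence.

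In storage and catabolism, RETSAT, which saturates retinol, rose at both concentrations. Its levels were -2.43, -2.38 and -2.25 on untreated, -1.28, -1.10 and -1.09 on 8 nM, and -1.42, -1.21 and -1.25 on 80 nM arrays, so that both treated groups lay above the untreated one and overlapped each other. The increase was 2.29-fold at 8 nM (log2 change 1.2 ± 0.09, SE, limma adjusted p = 0.000202) and 2.08-fold at 80 nM (adjusted p = 2.88e-05). Its adjusted p at 8 nM with the replicate block was 0.0137. CES1, a carboxylesterase, fell 3.79-fold at 80 nM, where it was well above background on 2 of 3 arrays, and CYP1B1, a cytochrome P450 enzyme, fell 2.21-fold. Of 11 genes known as targets of retinoic acid, 4 were called higher and 5 lower at 80 nM and none at 8 nM. PLAAT4, first found as a retinoid-responsive gene, fell 3.94-fold, from levels of 1.48, 0.49 and 0.63 on untreated to -1.10, -1.04 and -1.19 on 80 nM arrays. RAI1 fell 2.19-fold at 80 nM. At 8 nM its brightest probe was lower by less than the fold limit (log2 change -0.44, limma adjusted p = 0.00433, and 0.0736 with the replicate block). Its 2 dimmer probes fell there past that limit, with log2 changes of -0.85 (limma, adjusted p = 0.0308) and -1.09 (adjusted p = 0.00237). All its probes thus went the same way, and the count of none at 8 nM rests on the size of the change in the brightest. At 80 nM the nuclear receptor NR2F1 fell 1.85-fold. Its close relative NR2F2 rose 4.45-fold, BHLHE40 1.88-fold and the transglutaminase TGM2 1.83-fold (limma, adjusted p between 1.21e-06 and 0.00997 for these targets). With scaling to spike-in controls the adjusted p was 0.0747 for BHLHE40 and 0.0766 for TGM2. The nuclear receptors NR2F1 and NR2F2 therefore moved in opposite directions, as RDH10 and RDH5 did.

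**Figure D5:**
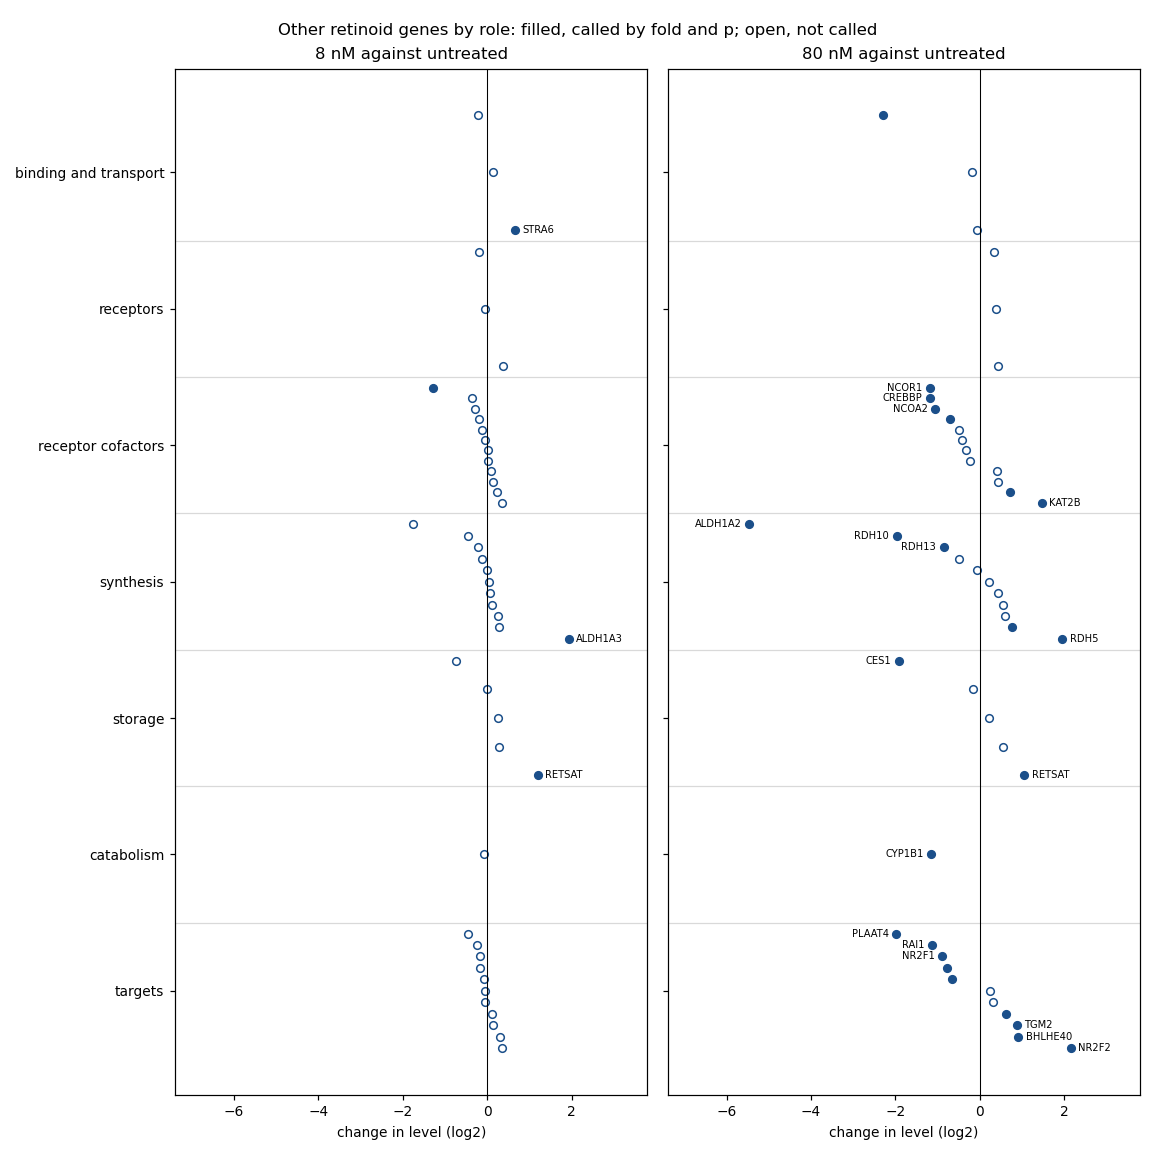
Log2 change at 8 nM (left) and 80 nM (right) against untreated of the 46 measured genes of the wider list, by role, with filled circles for called genes, of which those described in the text are named. At 8 nM 4 genes are called, and at 80 nM called genes of both directions stand in synthesis, in storage, among cofactors and among targets. The point of ALDH1A2 at 80 nM is a fitted value of a probe not well above background there. ALDH1A3, called at 8 nM, passed the filter through the 8 nM arrays alone.

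The profiles most like those of CRABP1 and RXRA were sought among 13553 genes by the root mean square difference of log2 levels over the 9 arrays, each taken from the gene's own untreated mean. Nearest to CRABP1 were SIX6 (0.16), CCR1 (0.20), FABP9 (0.25), FLRT3 (0.28) and KCTD16 (0.33). Of these 5, CCR1 alone was well above background at 80 nM, so the size of the other differences there is limited by background and no order is read among the 5. The 80 nM arrays that enter this measure are those by which CRABP1 was chosen. Nearest to RXRA were GLI2 (0.15), LETM1 (0.15), RASA3 (0.15), CLSPN (0.15) and LRP8 (0.16), with mean log2 changes of -0.93 to -0.65 at 8 nM and of -1.70 to -1.33 on the 80 nM arrays. All 5 were well above background on the 80 nM arrays. These profiles are a description across the same 9 arrays.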

How the data were processed

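Total RNA of A2780 cells was measured on 9 Agilent one-colour arrays, and groups and replicate numbers were taken from the labels. The authors extracted spot intensities with Agilent Feature Extraction 10.7.3.1 (per the file headers). The processed intensity they deposited has its background removed and no scaling across arrays. A second table from the authors holds log2 values, which followed the log2 median spot signal (correlations of 0.99856 to 0.99981) with medians of 6.60 to 6.61 on every array. It was used as an alternative only, since its exact scaling is not given in the sources used here.

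Processed intensities were put on the log2 scale and counted from the 75th percentile of gene spots on each array, an intensity of 825.9 to 1166. Control and outlier spots were left out, spots of a probe were averaged on the log2 scale, and no gene probe was saturated. RefSeq accessions stood on 27245 probes, of which 25715 could be named from RefSeq genes on GRCh38.p14. Of 42405 gene probes, 26433 passed the filter. All 9 arrays were fitted in R 4.3.3 with limma 3.58.1 (group means, contrasts, eBayes), and the code was tested on simulated data. Array number limits the precision.

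The genes and lists were chosen with earlier results of these data known. Genes of the wider list are named where they passed adjustment at 1.5-fold or more without overlap between groups, up to 20 by size, and 5 profiles nearest to CRABP1 and to RXRA are named. A few genes of the lists are not reported here by name. Alternatives were normexp (offset 50, on the median signal), quantile, median, spike-in (10 probes) and the authors' values, no filter, a filter that asks for all 9 arrays, averaged or single probes, fits of only the groups compared, the replicate block, and arrays left out in turn. The block was also fitted to the untreated and 8 nM arrays alone, added after seeing that deviations of same-numbered arrays of these groups correlated at 0.1135, 0.1012 and 0.1624, and those with 80 nM arrays at -0.1238 to 0.0156. Differently numbered arrays could reach a like size, such as 0.118 for 8 nM replicate 1 with 80 nM replicate 2. For 8 nM replicate 2 with 80 nM replicate 3 it was 0.1252. The pairing comes from these correlations alone and is not established, since no label says what a number marks.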

Additional observations from a re-analysis of the deposited data

How the results depend on the processing

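Counts of called genes among the 9 genes and the wider list kept within 1.5 times under every alternative run. Counts over all genes did not. With normexp, 447 genes were called higher and 282 lower at 8 nM in place of 927 and 596, 2446 and 2286 at 80 nM in place of 4129 and 3495, and 2357 and 1948 against 8 nM in place of 4284 and 3030. With the authors' values, 613 were called higher and 283 lower at 8 nM. Leaving out 1 array at a time, counts on the lists ranged from 1 to 1 for the 8 tested genes at 8 nM, from 5 to 7 (80 nM against untreated) and from 5 to 6 (80 nM against 8 nM) without CRABP1, and for the wider list from 3 to 5, from 23 to 26 and from 21 to 25. Reversals came from the choice of probe and from spike-in scaling. Taken alone, the second probe of CRABP2 gave -0.15 at 8 nM, 0.23 at 80 nM and 0.38 against 8 nM, that of RARA 0.29 at 80 nM and 0.37 against 8 nM, and that of ALDH1A1 -4.22 and -4.54. The mean of the ALDH1A1 probes gave -1.71 and -1.76. Spike-in scaling turned RARG to -0.10 (80 nM against 8 nM, adjusted p = 0.791) and left RXRA at 8 nM at -0.77 (adjusted p = 0.093 by limma). It moved the median of all genes at 80 nM from 0.08 to -0.20 and the share of lower calls from 45.8% to 71.9%, at 8 nM from 39.1% to 21.1%, and between 8 and 80 nM from 41.4% to 76.9%. At 8 nM quantile normalization gave 29.7%. The cause was not tested. The log2 difference of CRABP1 at 80 nM was -4.56 with normexp, -5.16 with the authors' values and -4.15 with the mean of its probes. Without 80 nM replicate 2, ALDH1A1 was 1.17 higher at 80 nM (limma, adjusted p = 0.0311).

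With the replicate block on the untreated and 8 nM arrays, 1613 genes were called at 8 nM in place of 1523, and 758 in place of 1102 after adjustment. RXRA kept its call, while CRABP2, RARG, DHRS3, ALDH1A3 and STRA6 did not pass adjustment. With the block on all 9 arrays, RARG at 8 nM had an adjusted p of 0.0719. Without untreated replicate 1 or 3, DHRS3 at 8 nM had adjusted p-values of 0.0516 and 0.0597 (limma). Of the 5 profiles nearest to CRABP1, 1 was among the nearest under normexp or the authors' values, and of those nearest to RXRA, 3 were.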
